A study of Homo sapiens with 9 samples.

Results

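The enzalutamide-resistant prostate cancer line VCaP16 was set against its parental line VCaP in 9 ATAC-seq libraries, which are all the libraries of the series. The groups were taken from the sample titles: 3 libraries of VCaP16 cells grown with 16 µM enzalutamide, and 6 libraries of parental VCaP cells, of which 3 (VCaP_DMSO) had received the solvent DMSO and 3 (VCaP_ENZ) had received 10 µM enzalutamide for 96 h. The 6 parental libraries are called the VCaP libraries here. Both lines are human cell lines labelled as prostate cancer with a wild-type genotype. Every VCaP16 library had the drug and 3 of the 6 VCaP libraries had it at another dose, so line and drug cannot be told apart in full. VCaP16 is 1 line, and the labels do not say whether libraries of a group came from separate cultures, so the p-values measure the spread between these libraries, which may be technical.

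VCaP cells come from a prostate cancer metastasis and respond to androgens, the hormones on which most prostate cancers depend. Enzalutamide is an anti-androgen drug given for this disease, and tumours often become resistant to it during treatment. ATAC-seq reads open chromatin, such as promoters and enhancers, because the transposase Tn5 inserts adapters where DNA is not wrapped tightly.

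The deposited lists held 53646 to 68921 peaks per library on chromosomes 1 to 22 and X, with the longest list in VCaP16 replicate 3. Merging the 9 lists, with 1 shared bp enough to join peaks, gave 94773 regions. A region was kept in the consensus, which held 66108, if at least 2 of 3 libraries of some group called it. Of these, 33033 were called in all 9 libraries; they are the common regions. Their median score, read here as −log10 of a significance value (p or q) of each peak, was 20.3, against 9.34 at the 6093 regions called in 8 libraries, just outside this rule. The library missing from those 8 was VCaP16 replicate 3 for 157 regions and VCaP_DMSO replicate 3 for 977, the fewest and the most.

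Deeper libraries give higher peak scores, and no depth is given, so scores were not compared between libraries. In each library the 33033 common regions were ranked by score instead, so that every library ranks the same regions. A position of 1% means that 1% of the common regions scored as high or higher there. For tests the ranks were turned into normal scores, values on the scale of a standard normal distribution on which 0 is the middle of the list and higher means stronger. A rank shows a region's strength relative to the other common regions. In bulk libraries a stronger peak can come from more open copies in each cell, from more cells with the site open or from more copies of the DNA, and these cannot be told apart.

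On average, libraries of each group ranked the common regions more like each other than like libraries of the other groups, in VCaP16 as in both parental groups. Across the 33033 regions, Pearson's r of the normal scores was 0.856 to 0.874 for the 3 pairs within VCaP16, 0.859 to 0.872 within VCaP_DMSO and 0.848 to 0.856 within VCaP_ENZ. It was 0.803 to 0.839 for the 9 pairs of VCaP16 with VCaP_DMSO and 0.819 to 0.843 for the 9 pairs of VCaP16 with VCaP_ENZ. For VCaP_DMSO with VCaP_ENZ it was 0.810 to 0.852. These correlations are across regions, which are not independent replicates, and pairs share libraries.

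Of the 33033 common regions, 476 (1.44%) ranked higher in VCaP16 than in VCaP and 380 (1.15%) ranked lower, together 2.59%, at an adjusted p below 0.05 in limma with Benjamini-Hochberg adjustment over all common regions. The contrast was VCaP16 minus the mean of VCaP_DMSO and VCaP_ENZ. The median difference was 0.92 normal score units at the 476 regions and -0.91 at the 380, against -0.0036 over all common regions. All 3 VCaP16 libraries lay above all 6 VCaP libraries at 383 of the 476 and below them at 304 of the 380. Over all common regions these shares were 3.7% and 3.39%, and since the call uses the same values, nothing is read from the contrast. When a VCaP16 library was left out, 192 to 242 of the 476 and 185 to 197 of the 380 were still called, the fewest without replicate 2, and all those measured kept their sign. Without both longest lists, VCaP16 replicate 3 and VCaP_ENZ replicate 2, 145 and 157 were still called. The counts were 129 and 111 when limma's variance prior did not follow the mean rank.

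**Figure D1:**
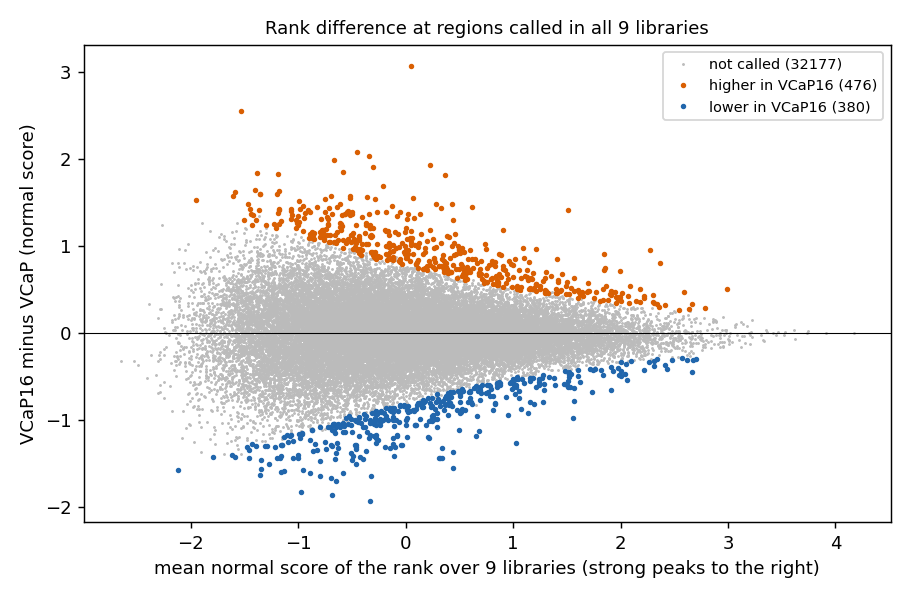
Each point is 1 of the 33033 common regions, with its mean normal score over 9 libraries on the horizontal axis and the difference VCaP16 minus VCaP in normal score units on the vertical axis. The 476 regions called higher (orange) and the 380 called lower (blue) span weak and strong regions, and smaller differences were called among strong regions, where libraries varied less.

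The region that moved furthest lay at chr9:68425969-68426941 on hg19. In VCaP16 it stood at 2.02%, 1.60% and 1.81% from the top of replicates 1, 2 and 3, and in the VCaP libraries at 55.6% at best, 78.6% at the median and 98.1% at worst. A weak peak in the parental line was thus among the strongest peaks of the resistant line, with no overlap between the groups. The difference was 3.07 ± 0.24 (SE) normal score units, with a limma adjusted p of 1.05e-14. The limma adjusted p was 0.00419 when the variance prior did not follow the mean rank, and 0.0033 with percentile ranks in place of normal scores. The region was not measured with a minimum score of 5 or with an overlap of 50%. Its authors' scores were 84.2, 93.9 and 122 in VCaP16 and 4.65 to 21.6 in VCaP.

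Next came chr17:34043862-34044773, at 33.6%, 43.7% and 52.7% in VCaP16 and 93.8% to 99.9% in VCaP (median 98.7%). Among the common regions it climbed from the bottom in the parental libraries to around the middle in the resistant ones, by 2.56 ± 0.39 (SE; limma adjusted p = 1.59e-05). Its limma adjusted p was 0.0267 when the variance prior did not follow the mean rank. This region was not measured with a minimum score of 5 or with an overlap of 50%. At chr3:73853252-73853967 the VCaP16 positions were 12.0%, 19.6% and 22.1% and the VCaP positions 52.0% to 98.3% (median 86.4%). Here VCaP16 exceeded VCaP_DMSO by 2.73 units and VCaP_ENZ by 1.43. At chr12:13288479-13289229, VCaP16 stood at 21.96%, 12.4% and 13.3% and VCaP at 74.8% to 90.3% (median 84.99%), and the gap was nearly the same to both parental groups, 1.93 to VCaP_DMSO and 2.15 to VCaP_ENZ. At chr1:160101697-160102267 the VCaP16 libraries stood at 7.70%, 6.29% and 5.62% and the VCaP libraries at 26.9% to 84.5% (median 71.4%). The VCaP_ENZ libraries were spread between both other groups there, at 26.9%, 59.1% and 46.0%, while the VCaP_DMSO libraries were close together, at 83.6% to 84.5%. The other 5 of the 10 regions with the largest rise lay on chromosomes 5, 6, 8 and 17, with differences of 1.83 to 1.99 and adjusted p of 4.96e-06 to 0.00187 in limma.

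In the other direction, the largest fall was at chr1:217075995-217076573. Its VCaP16 positions were 98.1%, 97.8% and 77.3%. The VCaP_DMSO libraries had it at 9.90%, 13.9% and 18.9% and the VCaP_ENZ libraries at 64.7%, 65.8% and 73.5%, so the 3 groups did not overlap. The difference to all VCaP libraries was -1.92 ± 0.28 (SE; limma adjusted p = 4.14e-06), made up of -2.70 against VCaP_DMSO and -1.15 against VCaP_ENZ. Over its alternatives the limma adjusted p rose to 0.0269 at most, but the region was not measured with a minimum score of 5 or with an overlap of 50%. At chr20:12998377-12999221 VCaP16 stood at 99.3%, 92.0% and 97.4% and VCaP at 39.0% to 74.8% (median 47.2%). At chr3:123549852-123550651 VCaP16 stood at 93.5%, 86.8% and 94.8% and VCaP at 27.4% to 52.6% (median 44.5%), and the gap to VCaP_DMSO (-1.62) and to VCaP_ENZ (-1.66) was alike. The 10 regions with the largest fall had differences of -1.92 to -1.60. Of these, 4 lay on chromosome 3 and 2 on chromosome 1. All lower calls made up 1.27% of the common regions on chromosome 3 and 0.921% on chromosome 1, near the 1.15% over all chromosomes. In each of the 10 the middle VCaP16 library stood at 93.5% or further down the list, near the end of the common regions, although a peak was still called there in all 9 libraries. Over the alternatives the limma adjusted p rose to 0.136 at chr1:234243086-234243816 and to 0.112 at chr5:173574049-173574701. It rose to 0.0658 at chr3:83142086-83142608 and to 0.0585 at chr9:2298885-2299774. The others of the 10 stayed past the threshold wherever they were measured. None of the 10 was measured with an overlap of 50%. Several, chr20:12998377-12999221 among them, were measured neither with a minimum score of 5 nor with lists of equal length.

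**Figure D2:**
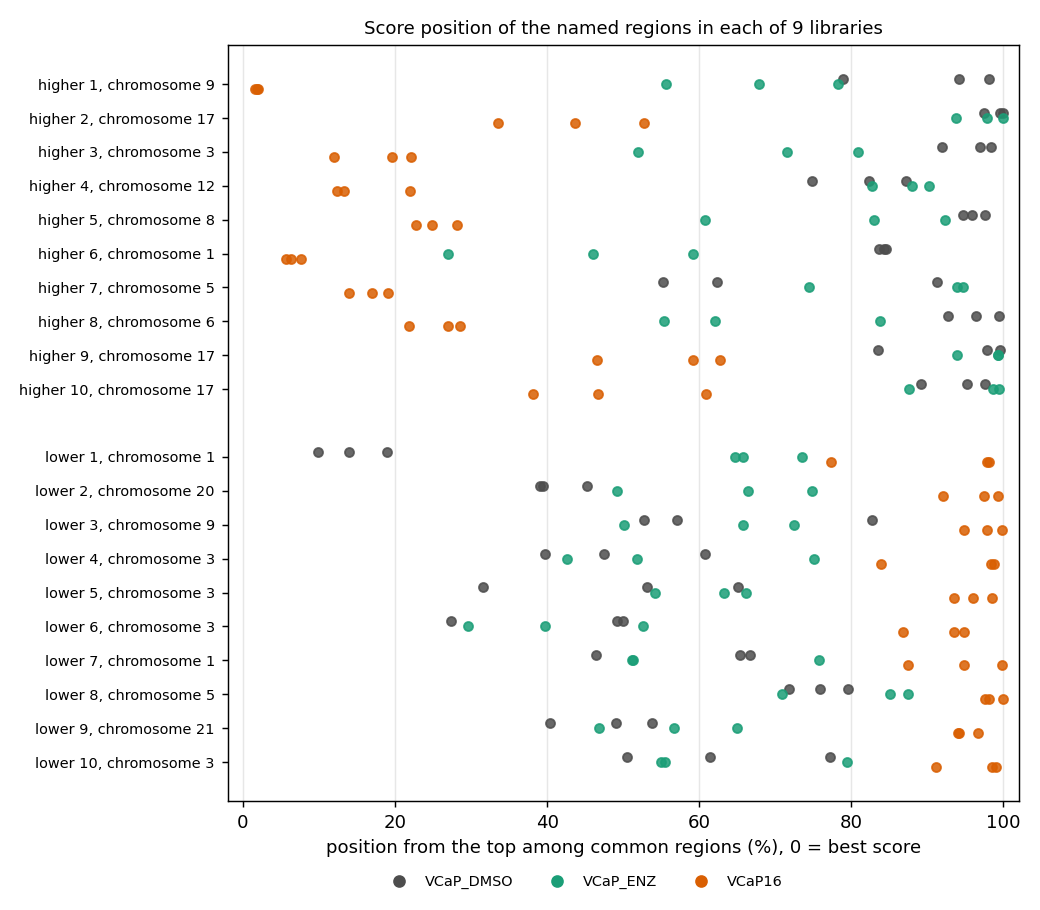
The horizontal axis gives the position of a region from the top of each library's ranked common regions, in percent, and each row is 1 of the 10 regions with the largest rise or fall in VCaP16 among those called with no overlap between groups. In every row the 3 VCaP16 points lie to one side of the 6 VCaP points; in the first row they sit at 1.60% to 2.02%.

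Called regions were found at every strength. The common regions were divided by mean rank into 4 sets of equal size. In the strongest set 1.95% were higher and 1.38% lower in VCaP16, against 0.981% and 0.702% in the weakest, and the median SE was 0.148 in the former and 0.346 in the latter. The higher regions stood at a median position of 54.9% in VCaP and at 19.7% in VCaP16. The lower regions stood at 32.8% in VCaP and at 68.6% in VCaP16. Over all common regions these medians were 51.1% and 50.4%. The calls use the same values, so nothing is read from these shifts in position. The distance from a called region to its nearest common region (median 19450 bp for higher and 20233 bp for lower regions) was close to that over all common regions (20343 bp). Regions in which some library had several peaks made up 3.78% of the higher and 8.16% of the lower regions, and 10.5% of all common regions.

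The parental groups differed in mean position at the higher regions and were close at the lower ones, with no test made between them. At the 476 higher regions the VCaP_DMSO libraries had a mean position of 54.7%, VCaP_ENZ of 47.7% and VCaP16 of 24.3%, and the median difference of VCaP16 was 1.02 against VCaP_DMSO and 0.76 against VCaP_ENZ. At the 380 lower regions the mean positions were 34.4%, 35.7% and 60.8%, and the median differences were -0.90 and -0.89. Both differences share the VCaP16 libraries.

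By chromosome, higher regions made up 3.04% of the common regions on chromosome 8, 3.04% on chromosome 21 and 2.64% on chromosome 9, and 0.484% on chromosome 16. Lower regions made up 2.15% on chromosome 5 and 1.92% on chromosome 21. Over all chromosomes 1.44% were higher and 1.15% lower. Chromosome 21 had only 626 common regions, of which 19 were higher and 12 lower. Of the higher regions, 49.2% had another higher region within 1 Mb and 32.4% had a lower region within that distance. For the lower regions these shares were 36.6% for another lower and 33.9% for a higher region. Over all common regions, 34.3% had a higher region other than themselves within 1 Mb and 29.4% a lower one, and no test was made of these shares.

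Far fewer regions passed the test for width than for rank. Width was the number of bases under peaks of a library in a region, on a log2 scale, less the library's own median. No common region was wider in VCaP16 and 1 (0.00303%) was narrower at an adjusted p below 0.05 in limma, while 1202 were wider and 1207 narrower at an unadjusted p below 0.05. By the same unadjusted limit 4997 regions differed in rank. The narrower region, at chr11:134336097-134337571, was 465, 598 and 420 bp wide in VCaP16 and 1119 to 1298 bp wide in VCaP, with no overlap between groups. Its log2 difference was -1.35 ± 0.14 (SE; limma adjusted p = 0.0363), and its rank difference of -0.86 did not pass (adjusted p = 0.158). Over its alternatives the adjusted p of the width ran from 0.0152 to 0.191, and the call was lost without any 1 library other than VCaP16 replicate 2.

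Next by p among narrower regions, without passing, was chr7:27228422-27232008, with 741, 972 and 758 bp under peaks in VCaP16 and 1321 to 3122 bp in VCaP (log2 difference -1.45, limma adjusted p = 0.116). Over its alternatives the limma adjusted p ran from 0.0183 to 0.778. It was not measured with 1 peak per library or with an overlap of 50%. The region at chr20:6688782-6689797 came first among wider ones, at 879, 867 and 987 bp against 412 to 560 bp (log2 difference 0.92, limma adjusted p = 0.168), while its rank difference was 0.0034. At both, the VCaP16 widths and the VCaP widths did not overlap, although neither passed the threshold over 33033 regions. Width and rank come from the same peaks and are not independent. Of the 476 regions with a higher rank, 80.0% had a positive width difference, with a median of 0.22 log2 units. Of the 380 with a lower rank, 16.3% had one, with a median of -0.18, and over all common regions 47.7% had one, with a median of -0.011.

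**Figure D3:**
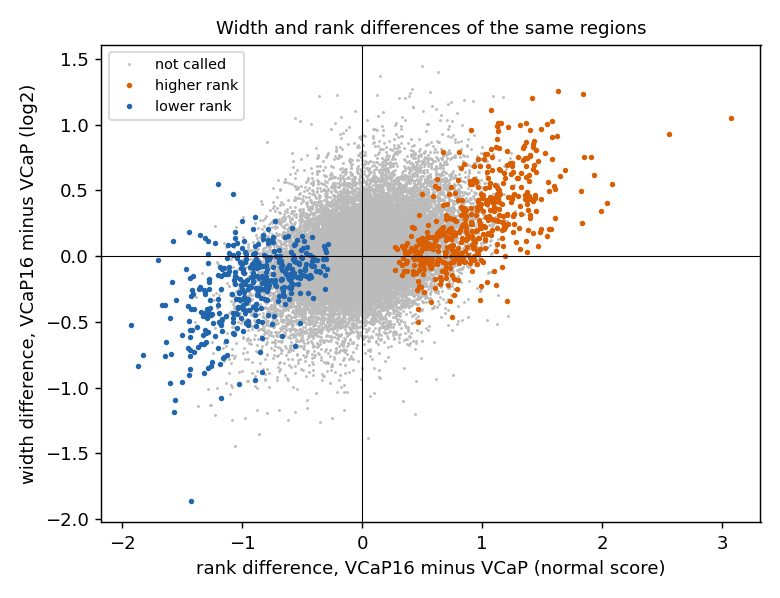
Each point is a common region, with its rank difference (normal score units) on the horizontal axis and its log2 width difference on the vertical axis, both VCaP16 minus VCaP. Most regions called higher in rank (orange) lie above the zero line of width and most called lower (blue) lie below it, with medians of 0.22 and -0.18.

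Neighbouring regions were then pooled in bins of 5 Mb, to ask whether stretches of a chromosome moved as a whole. Of 516 bins with at least 20 common regions, 16 (3.1%) had a higher and 16 (3.1%) a lower mean normal score in VCaP16 in limma (adjusted p below 0.05 over bins). The differences were small, -0.26 to 0.21, and regions of a bin did not all differ in 1 direction: 51.1% to 72.4% of the regions of a higher bin and 18.6% to 46.2% of those of a lower bin had a positive difference. The 16 higher bins held 3.34% of the common regions and 59 of the 476 higher regions (12.4%), and the 16 lower bins held 2.05% and 24 of the 380 lower regions (6.32%). Bins and regions were called from the same values, so called regions gather in called bins by construction. These counts rest on many libraries at once. They were 3 and 7 without VCaP_ENZ replicate 1, 3 and 4 without VCaP16 replicate 2, 4 and 7 without VCaP16 replicate 1, 5 and 9 without VCaP16 replicate 3, and 9 and 9 without VCaP_DMSO replicate 1. Without VCaP_ENZ replicate 2 there were 10 higher bins.

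The bin that fell furthest was chromosome 5 from 125 to 130 Mb. Its 43 regions had mean normal scores of -0.30, -0.20 and -0.18 in VCaP16 and -0.03 to 0.10 in VCaP (median 0.03), so the groups did not overlap. The difference was -0.26 ± 0.037 (SE; limma adjusted p = 0.0012), and 18.6% of its regions had a positive difference. The bin from 115 to 120 Mb fell too (-0.19, limma adjusted p = 0.0153), and all 8 bins from 105 to 145 Mb had a negative difference. Those at 110, 120 and 130 Mb had -0.11, -0.14 and -0.11 and adjusted p of 0.0545, 0.0862 and 0.0545 in limma, and the others were further from the threshold. Other bins that fell were chromosome 2 from 50 to 55 Mb (-0.25), chromosome 10 from 40 to 45 Mb (-0.23) and chromosome 1 from 240 to 245 Mb (-0.22), each with an adjusted p of 0.0034 in limma. The bins at 125 Mb of chromosome 5, at 50 Mb of chromosome 2 and at 40 Mb of chromosome 10 stayed past the threshold without any single library. The bin at 115 Mb of chromosome 5 did not without VCaP16 replicate 2 (adjusted p = 0.108) or VCaP_ENZ replicate 1 (0.0596), nor did that of chromosome 1 without VCaP16 replicate 2 (0.0644). Without both longest lists the bins of chromosome 2 (0.0705) and chromosome 1 (0.0521) were lost too.

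The bin that rose furthest was chromosome 6 from 20 to 25 Mb, with 0.19, 0.15 and 0.07 in VCaP16 and -0.16 to -0.03 in VCaP, a difference of 0.21 ± 0.036 (SE; limma adjusted p = 0.0034). Chromosome 8 from 105 to 110 Mb rose by 0.20 ± 0.036 (limma adjusted p = 0.00399). On chromosome 9 the bin from 110 to 115 Mb stood at 0.34, 0.36 and 0.38 in VCaP16 and at 0.15 to 0.23 in VCaP. It rose by 0.17 ± 0.032 (limma adjusted p = 0.00408) and held 13 called higher regions among its 101. From there to 145 Mb all 7 bins had a positive difference, of which that from 130 to 135 Mb also passed (0.12, limma adjusted p = 0.0365). Chromosome 13 from 110 to 115 Mb held 13 called higher regions among 119 and rose by 0.13 (limma adjusted p = 0.0347). The bins at 110 Mb of chromosome 9 and 20 Mb of chromosome 6 passed without any single library, and that of chromosome 8 did not without VCaP_ENZ replicate 1 (adjusted p = 0.0517) or without both longest lists (0.0518). Those at 130 Mb of chromosome 9 and 110 Mb of chromosome 13 were lost without replicate 1, 2 or 3 of VCaP16 (adjusted p = 0.0541 to 0.18) and without VCaP_ENZ replicate 1 (0.0517 and 0.0611), the former also without VCaP_DMSO replicate 1 (0.0621), VCaP_DMSO replicate 3 (0.0634) or VCaP_ENZ replicate 3 (0.0533) and the latter without VCaP_DMSO replicate 2 (0.0561). Both were also lost with 2 groups (0.0826 and 0.0876) and without both longest lists (0.0705 and 0.16), and the latter with a replicate block (0.0522).

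**Figure D4:**
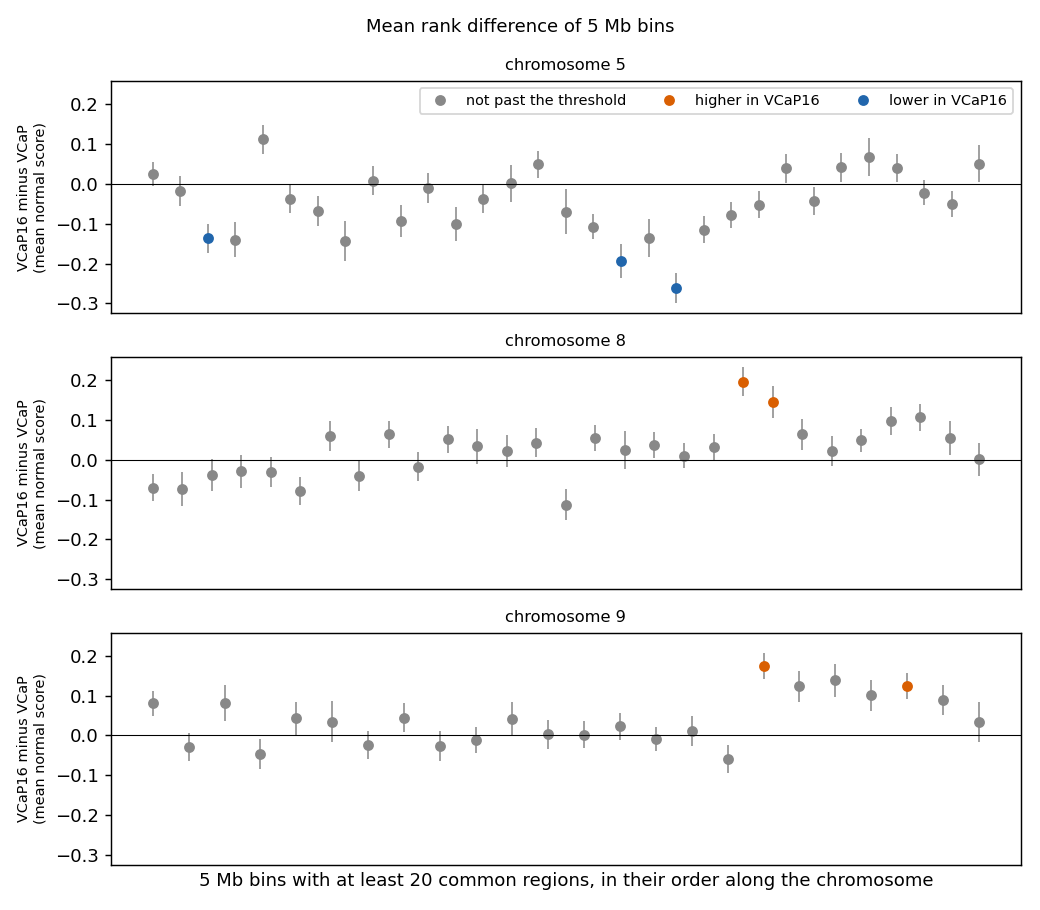
Points give the mean rank difference VCaP16 minus VCaP of each 5 Mb bin on chromosomes 5, 8 and 9, in normal score units, in their order along the chromosome, and bars give ± 1 SE from limma. Runs picked after seeing the values are 8 negative bins around the lowest on chromosome 5 (-0.26), 14 positive bins on chromosome 8 (0.0011 to 0.20) and 7 positive bins at the end of chromosome 9 (up to 0.17). In some of the chromosome 8 bins VCaP16 lay below the VCaP_ENZ mean, as from 100 to 105 Mb (0.31 against 0.34). In others VCaP16 lay above both parental means, as from 105 to 110 Mb (0.13 against -0.03 in VCaP_ENZ).

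A list of 13 genes that matter in prostate cancer was placed in these bins: the androgen-induced genes KLK3, TMPRSS2 and FKBP5, the receptor gene NR3C1, the steroid-clearing enzyme UGT2B17, the transcription factors FOXA1, HOXB13, GATA2 and CEBPB, the growth genes MYC and CCND1, the tumour suppressor RB1, and SMARCB1, a subunit of a chromatin remodeller. No annotation of hg19 was used, so genes were placed by general knowledge of that build, and a value belongs to the whole bin and not to the gene. None of the 13 bins passed the threshold in limma, against 6.2% of all 516 bins, and 6 had a positive and 7 a negative difference. The median was -0.014, against -0.0017 over all bins. The bin with FKBP5, which codes for a chaperone of steroid receptors and is induced by androgens, had the lowest difference, -0.10 (limma adjusted p = 0.0892). Its VCaP_DMSO libraries stood at -0.08 to -0.11, VCaP_ENZ at -0.19 to -0.29 and VCaP16 at -0.19 to -0.33, so VCaP16 overlapped the drug-treated parental libraries. The bin with CCND1, which codes for cyclin D1, a driver of the cell cycle, had the highest difference of the 13, 0.05 ± 0.031 (SE; limma adjusted p = 0.361). The 13 bins held 1447 common regions, of which 19 were called higher and 14 lower. Over all 33033 common regions 476 (1.44%) were called higher and 380 (1.15%) lower, and these shares were not tested against each other.

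Outside the common regions, calls were one-sided at few places. Of the 66108 consensus regions, 520 (0.787%) were called in 3 of 3 VCaP16 and 0 of 6 VCaP libraries, and 83 (0.126%) in 0 of 3 and 6 of 6. Both patterns shade into wider ones: 741 regions were called in 3 VCaP16 libraries and 1 VCaP library, 1899 in 2 and 0, 198 in 0 and 5, and 383 in 1 and 6. The patterns are unequal by design, 3 calls against 6, and leaving out a library loosens the rule, so both counts rise whichever library is left out. Without VCaP16 replicate 3, the longest list, there were 801 and 321 regions, without VCaP16 replicate 1 1339 and 153, and without VCaP16 replicate 2 1319 and 160. Without VCaP_ENZ replicate 1 or 3 the 83 became 127 and 137. With lists of equal length there were 373 and 190.

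**Figure D5:**
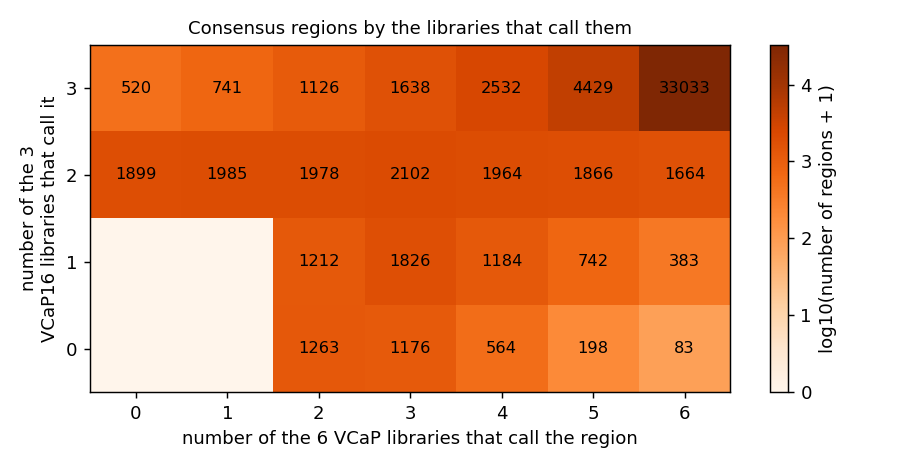
Each cell counts the consensus regions called in a given number of the 6 VCaP libraries (horizontal) and of the 3 VCaP16 libraries (vertical), with colour on a log10 scale. The corner of regions called everywhere (33033) holds about as many as the other cells together, and the one-sided corners hold 520 and 83; the 4 empty cells cannot enter the consensus.

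One-sided regions were weak and narrow, like other regions that only some libraries called. The 520 had a median score of 7.23, a median peak width of 286 bp and a median position of 78.2% when each library's called consensus regions were ranked. The 33075 consensus regions not called in all 9 libraries had 6.94, 292 bp and 80.3%. The 83 had 6.76, 329.5 bp and 79.3%. The 520 lay a median of 26918 bp from the nearest common region, and 18.7% of them lay more than 100 kb from one, against 9.64% of the 83 and 12.5% of the consensus regions not called in all 9. Another of their kind lay within 100 kb of 29 of the 520 (5.58%) and 0 of the 83. For like sets the share was 9.18% (741 regions, 3 VCaP16 and 1 VCaP), 13% (1899, 2 and 0) and 2.02% (198, 0 and 5). Larger sets have closer neighbours by their number alone, so nothing is read from these shares. The 16 bins with a higher mean rank held 27 of the 520 (5.19%) and 3.31% of all consensus regions, and the 16 lower bins held 9 (1.73%) and 2.1%.

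The best-placed of the 520, by their median position in the libraries that call them, ran from 26.2% to 39.7% for the first 10. The first, at chr8:99414739-99415214, lay 28259 bp from the nearest common region and had scores of 21.9, 23.2 and 31.1. Another, at chr1:9961797-9962176, lay 1269 bp from one and had scores of 14.6, 20.8 and 30.9, and the seventh, at chr17:33329899-33330176, had 12.6, 18.3 and 30.2. In 9 of these 10 the highest score was that of VCaP16 replicate 3, the longest list. The first 10 of the 83 ran from 21.6% to 62.5%. At chr7:56441047-56441389 the scores were 42.4, 39.9 and 28.4 in VCaP_DMSO and 24.9, 22.9 and 14.02 in VCaP_ENZ, and no common region lay within 257293 bp. At chr15:80996993-80997617 they were 41.4, 46.8 and 47.0 in VCaP_DMSO and 10.3, 10.4 and 16.1 in VCaP_ENZ. No VCaP16 library had a peak at either place. Scores move with depth, so their order between libraries was not tested.

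For the 5 values per library the smallest p this design allows is 0.0119, which a single value could not bring past the threshold after adjustment over 5, so these are given as values. Regions called in no other library numbered 2572, 2051 and 5570 in VCaP16 and 1458 to 2668 in VCaP. The mean was 3398 ± 1899 (SD, n = 3) against 1872 ± 459 (SD, n = 6), with a two-sided exact permutation p of 0.0595 over 84 splits (0.198 after Benjamini-Hochberg adjustment over 5 values). The share of peaks outside common regions was 44.0% ± 5.80 in VCaP16 and 38.7% ± 3.54 in VCaP (exact permutation p = 0.119, adjusted 0.198). The median width at common regions was 607 ± 49.1 bp and 587 ± 37.1 bp (exact permutation p = 0.464, adjusted 0.58), and peaks per common region were 1.03 and 1.04 (exact permutation p = 0.726). Of the consensus regions called in 1 to 8 libraries, a VCaP16 library called 65.7% ± 10.8 and a VCaP library 54.4% ± 6.92 (exact permutation p = 0.0952, adjusted 0.198). VCaP16 replicate 3 had the highest value of the 9 for width, unshared regions and both shares.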

How the data were processed

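Open chromatin was measured by ATAC-seq in 9 libraries. The labels' protocol describes crosslinking with 1% formaldehyde and tagmentation with Tn5; it also describes a single-cell preparation, and the lists were treated as bulk. Per the submitters' processing notes, BWA 0.7.15-r1140, MACS2 2.2.7.1, HOMER 3.12 and hg19 were used, without roles; read filters and Tn5 shifts were not given in the sources used here. A list of peaks per library was deposited by the authors, whose score was taken as −log10 of a significance value (p or q) because it never falls below 2.

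Depth is unknown, so scores were ranked within libraries. Regions, merging and ranks are as the report describes; the best peak of a region gave its score. limma 3.58.1 (R 4.3.3; eBayes with a trend for regions, without for bins) fitted 3 group means to normal scores, log2 widths and bin means. Single values per library were tested by exact permutation of 3 against 6 libraries. The ranking test was checked on simulated data. Named regions and bins are, per direction, the 10 with the largest difference among those past the threshold whose groups do not overlap; of widths, the 3 with the smallest p per direction; of one-sided calls, the 10 best by median position. The members and lists were chosen with earlier results of these data known, and the runs of bins were chosen after their values were seen. Gene chromosomes were checked against RefSeq (13 of 13 symbols matched); none of its coordinates were used; some genes are not reported here. No sequence or repeat annotation of hg19 was used, and whether regions lie in repeats was not tested. Alternatives were a minimum score of 5, equal list lengths, an overlap of 50%, single libraries or both longest lists left out, a replicate block, 2 groups, other scales, variance prior, widths and bin sizes, and regions with 1 peak per library.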

Additional observations from a re-analysis of the deposited data

How the results depend on the processing

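Scores without depth limit what ranks can show, and the weakest regions had the largest errors. Of the results other than counts over all features and values per library, 805 kept their direction and side of the threshold, 104 were no longer past it, 11 newly passed, 2 changed sign and 1 moved. The counts of higher and lower ranks were 303 and 238 with 2 groups, 129 and 111 with a variance prior without trend, 210 and 130 with percentile ranks, 258 and 195 with an overlap of 50%, and 150 and 183 without both longest lists. The overlap of 50% left 17712 common regions in place of 33033. Of the main calls measured there, 233 of 234 higher and 193 of 211 lower regions were still called. Leaving out single libraries gave 204 to 437 and 227 to 331. The 1 narrower region became 0 with a replicate block, without trend, with a minimum score of 5 and without both longest lists, and 0 with 1 peak per library and 50% overlap, where it was not measured. There were 3 with equal list lengths and 2 by the span of peaks, which also made 1 wider; leaving out single libraries gave 0 to 2 narrower and 0 wider. Higher and lower bins numbered 4 and 8 with 2 groups, 4 and 7 without both longest lists, and 3 to 17 and 4 to 18 without single libraries. At 2 Mb, 29 of 702 bins were higher and 17 lower, and at 10 Mb 9 of 296 were higher and 12 lower. At 5 Mb these counts were 16 and 16 of 516. Regions called in VCaP16 alone and in VCaP alone numbered 1092 and 368 without both longest lists, 595 to 1339 and 98 to 321 without single libraries, and 190 of the latter with equal list lengths.

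The replicate numbers paired the libraries weakly at most. Correlations of deviations in rank were -0.0056 to 0.045 for same-numbered libraries and -0.034 to 0.017 for different-numbered ones. Of the libraries, 4 of 9 correlated best with their own number. Between VCaP_DMSO and VCaP_ENZ, correlations were 0.011, 0.045 and 0.023 for same numbers and -0.034 to 0.0098 for different ones. With a replicate block, 495 regions were higher and 415 lower, and 8 bins higher and 11 lower. Per library, leaving out single ones gave differences of -7.17 to 40 bp in width, -0.0047 to 0.00011 peaks per region, 1.93 to 7.21 percentage points outside common regions, 865 to 2608 unshared regions and 0.431 to 15.4 points of consensus regions. The mean rank difference changed sign in the bins of chromosome 5 from 120 to 125 Mb with 50% overlap (0.027) and of chromosome 9 from 140 to 145 Mb without VCaP16 replicate 2 (-0.016, against up to 0.104 without VCaP16 replicate 3). The cause was not tested.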
